A study of Mus musculus with 12 samples.

Results

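The gene described here is Ifng, which encodes the cytokine interferon gamma, in cultured mouse helper T cells given or deprived of the microRNA miR-29. Its members on the array were the probes whose RefSeq accession maps to Ifng, which lies on chromosome 10. There were 2 such probes among 41174 distinct probes, and Ifng was 1 of 17178 genes with a symbol, of which 14705 passed the filter on dim probes.

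Interferon gamma is the signature cytokine of type 1 helper T cells and of natural killer cells. The T-box factors T-bet and Eomes turn on its transcription, helped by STAT4 downstream of the interleukin-12 receptor and by signals from the interleukin-18 receptor. The secreted cytokine binds a receptor of the chains Ifngr1 and Ifngr2, and induces a broad set of antigen presentation and cell defence genes. MicroRNAs are short RNAs that pair through their seed with target transcripts and lower their level or translation, and Dgcr8 is the partner of Drosha in the first step of making most of them.

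The study used 12 one-colour Agilent arrays in 4 groups of 3, all on helper T cells of C57BL/6 mice aged 7 weeks. Dgcr8 KO cells, which are deficient in Dgcr8, received miR-29b in one group and a control miRNA in the other. WT cells received miR-29 inhibitors (labelled antimiR-miR-29) or control inhibitors. The labels do not name a Cre or promoter for the deletion. All cells had 65 hours of stimulation through CD3 and CD28, then IL-2 for 48 hours, with transfections by electroporation on days 1 and 4 and RNA taken on day 5. This RNA was collected 24 hours after the last transfection. The mice are numbered 2, 3 and 4 in each genotype, the cells of each mouse were divided between both conditions of its genotype, and equal numbers in the 2 genotypes are different mice. Because the miRNA control and the inhibitor control are different oligonucleotides, genotype and kind of control cannot be told apart in any comparison between genotypes.

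The mature miR-29 sequences are shown because they are what was added or blocked. The labels name miR-29b without an arm and do not say which miR-29 members the inhibitors matched. The sequences are those of the 3p arm in RefSeq (GRCm38.p6), 5′ to 3′, with the seed, bases 2 to 8, in capitals.
mmu-miR-29b-3p: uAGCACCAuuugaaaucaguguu
mmu-miR-29a-3p: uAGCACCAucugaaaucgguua
mmu-miR-29c-3p: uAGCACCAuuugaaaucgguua
All 3 share the seed AGCACCA, and they are the only 3 of 1679 mature names in the table with it. miR-29b and miR-29a had the same base at 18 of 22 positions compared, and miR-29b and miR-29c at 19 of 22.

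The Ifng promoter is shown because transcription factors that promote Ifng are described below, and whether they act through it was not tested. It is the stretch of 300 bases from 250 bases before to 50 bases after the annotated start, at chr10:118440796-118441095 of GRCm38.p6, plus strand, from RefSeq, with matches to the motifs searched in capitals.
Ifng promoter: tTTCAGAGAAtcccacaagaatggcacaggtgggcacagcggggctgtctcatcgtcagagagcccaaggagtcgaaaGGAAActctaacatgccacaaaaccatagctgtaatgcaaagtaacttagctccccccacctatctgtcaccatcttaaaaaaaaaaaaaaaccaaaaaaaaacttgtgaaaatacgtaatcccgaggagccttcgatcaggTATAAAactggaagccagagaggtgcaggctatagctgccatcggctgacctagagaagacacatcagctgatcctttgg
Both strands were searched, and no match overlapped another. The STAT element TTCNNNGAA occurred 1 time, and 8.30% of all 32851 promoters of the same length hold it. The NFAT core GGAAA occurred 1 time (61.3% of promoters) and the TATA box TATAAA 1 time (13.6% of promoters). The T-box core GTGTGA had 0 matches in this window and is in 14.5% of promoters. There were 7 CpG dinucleotides, equal to the median of 7 over all promoters. A match is only a run of letters and not a shown binding site.

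Both probes were measured well on every array. Probe A_52_P68893 had 1 spot per array and was the brighter, so it stood for the gene. Probe A_51_P220976 had 10 spots per array. Both were well above background on 12 of 12 arrays and 0 of their spots were saturated. On the KO control array of mouse 2 the 1 spot of A_52_P68893 was marked as scaled up from a low-gain scan. On that array 0 spots of A_51_P220976 had this mark. Levels below give the log2 signal minus the log2 75th percentile of its own array, so a level of 0 is the signal that 75% of the array's probes lie under. The brighter probe read 0.73 to 1.11 higher than the other on the log2 scale, and over the 12 arrays, which are in pairs from 6 mice, the probes had a Pearson correlation of 0.999 (a description, with no test).

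On probe A_52_P68893 the level was 1.16, 1.34 and -0.16 in Dgcr8 KO miR-29b cells of mice 2, 3 and 4, against 4.66, 4.03 and 2.59 in Dgcr8 KO control cells of the same mice. It was -1.92, -2.52 and -1.83 in WT antimiR-miR-29 cells, against -2.23, -2.83 and -2.63 in WT control cells. All 6 KO arrays lay above all 6 WT arrays, and the KO miR-29b and KO control groups did not overlap, while the WT groups did. The processed signals behind these levels were 2210, 2209 and 1049 units in KO miR-29b cells, against 28004, 15654 and 9458 units in KO control cells. They were 241, 245 and 291 units in WT inhibitor cells, against 245, 210 and 148 units in WT control cells, all before scaling between arrays. KO mouse 4 was the lowest of the KO mice in both conditions.

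On probe A_51_P220976 the level was 0.18, 0.39 and -1.02 in KO miR-29b cells and 3.78, 3.14 and 1.85 in KO control cells. It was -2.94, -3.33 and -2.86 in WT inhibitor cells, and -3.33, -3.56 and -3.71 in WT control cells. The order of the KO arrays was the same as on the brighter probe, and the WT groups met at -3.33. The spots of this probe had an SD of 0.04 to 0.17 (log2) within an array, which measures the array and not the spread between mice. A total of 4 spots over all arrays were marked as outliers and left out, so that 8 to 10 spots were used per array.

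**Figure D1:**
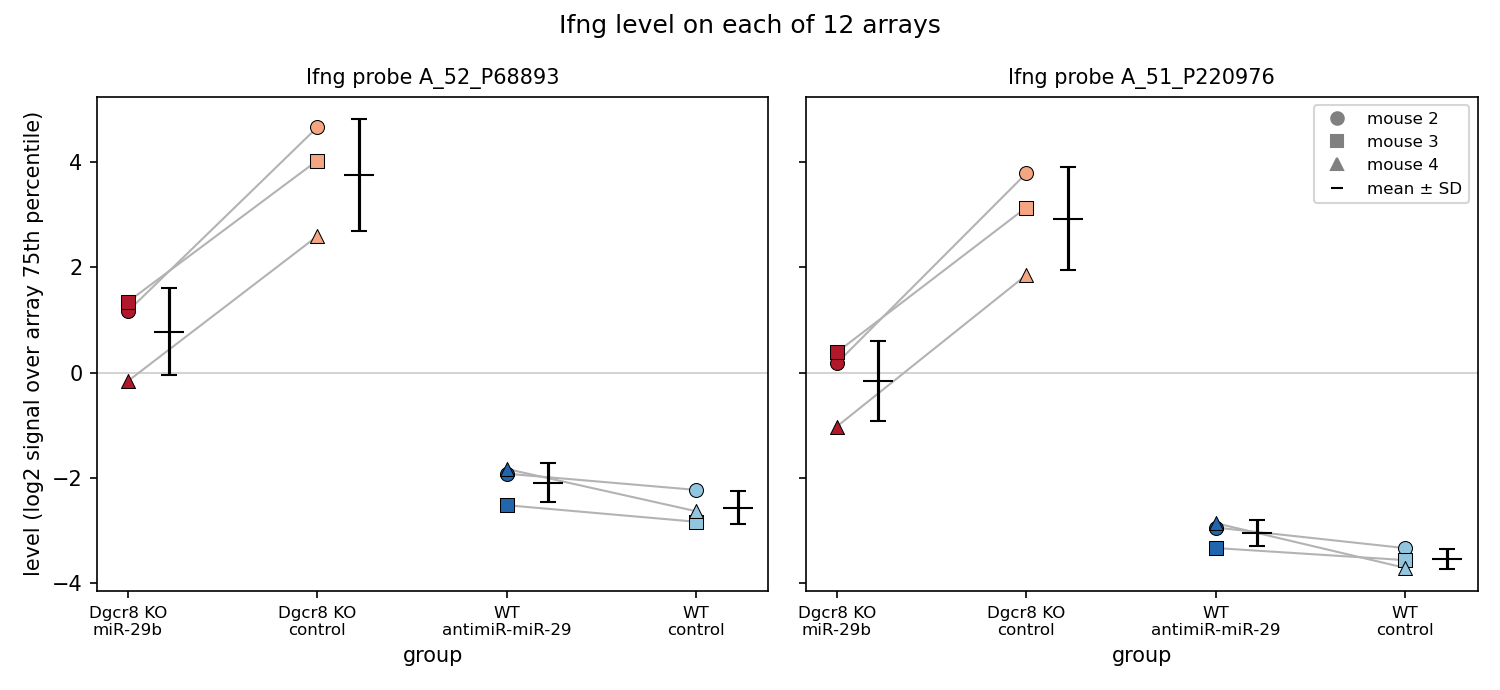
Level of both Ifng probes on each of the 12 arrays (log2 signal over the array's 75th percentile), by group, with lines joining the 2 arrays of a mouse and bars for the mean ± SD of 3 arrays. On probe A_52_P68893 the KO miR-29b arrays sit between -0.16 and 1.34, under the KO control arrays at 2.59 to 4.66, and all WT arrays lie at -1.83 or lower.

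**Figure D2:**
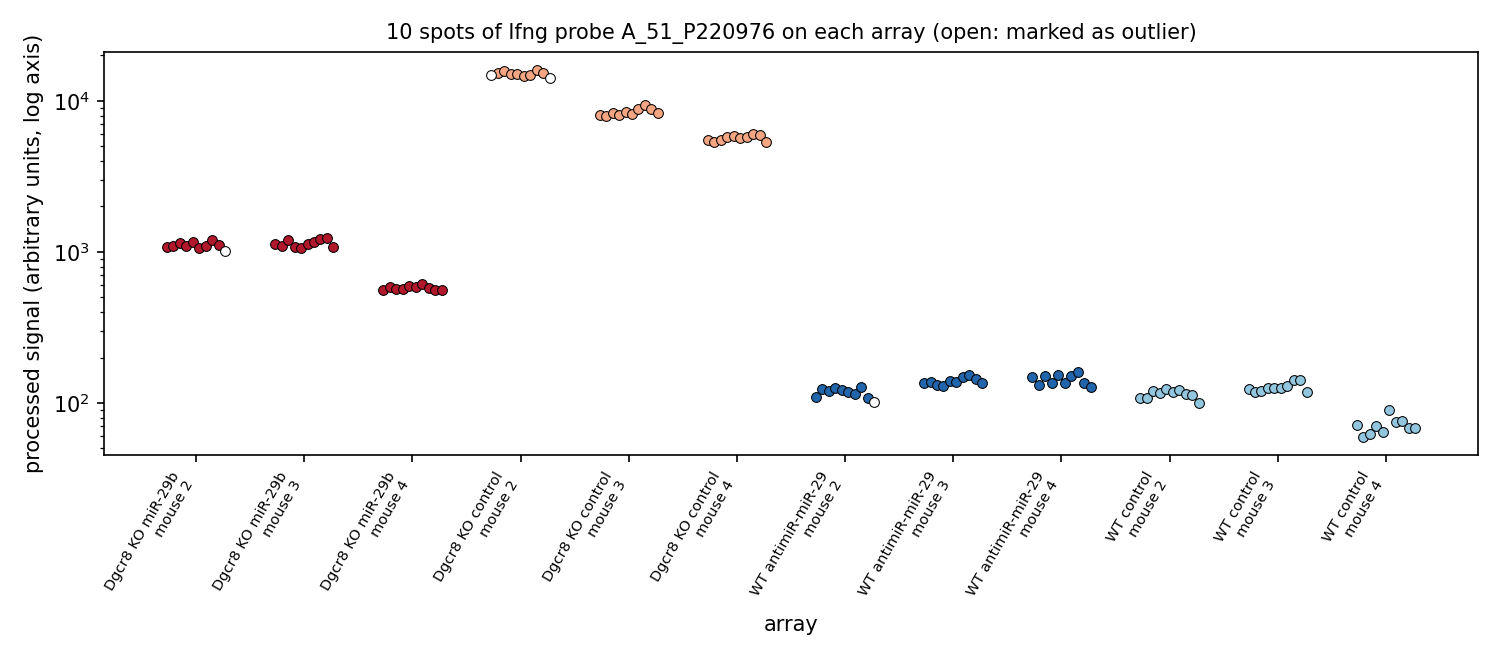
Processed signal in arbitrary units (log axis) of the 10 spots of Ifng probe A_51_P220976 on each array, with the 4 spots marked as outliers drawn open. The spots of an array lie close together, with an SD of at most 0.17 on the log2 scale, and KO mouse 4 is below the other KO mice in both KO groups.

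The group means on probe A_52_P68893 ran in the order KO control, KO miR-29b, WT inhibitor and WT control. The mean level was 0.78 ± 0.82 in KO miR-29b cells and 3.76 ± 1.06 in KO control cells (SD, n = 3 each). It was -2.09 ± 0.37 in WT inhibitor cells and -2.56 ± 0.31 in WT control cells (SD, n = 3 each). The 2 WT groups are neighbours in this order whose arrays overlapped on this probe, and their difference did not pass the test given below. Fewer cells that make Ifng and less Ifng RNA per cell cannot be told apart in these bulk samples.

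The first comparison asks what returning miR-29b does to Ifng in cells short of their own microRNAs. Ifng fell with miR-29b in all 3 mice, by 3.49, 2.68 and 2.75 on the log2 scale. The miR-29b arm held 8.88% of the signal of its own control in mouse 2, 15.6% in mouse 3 and 14.8% in mouse 4. The fitted log2 fold change was -2.98 ± 0.52 (SE; 95% interval -4.14 to -1.82), or 7.87-fold lower in KO miR-29b cells than in KO control cells (limma, adjusted p = 0.0184). No other of the 14705 genes had a lower log2 fold change in this fit, in which 2.28% of genes passed the threshold of adjusted p under 0.05, 0.884% as higher and 1.40% as lower. A fit blocked by mouse, which tests the difference within mice, gave an interval of -3.44 to -2.52 (limma, adjusted p = 0.00167), and Ifng was the second lowest. That fit called 20.8% of all genes, 10.5% as higher and 10.3% as lower.

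Fitted on its own among 32200 probes, A_52_P68893 had an adjusted p of 0.0316 in limma. The other probe showed -3.08 ± 0.48 (limma, adjusted p = 0.0174), with falls of 3.61, 2.75 and 2.88 in mice 2, 3 and 4. Both probes therefore fell in every mouse.

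The call depended on single arrays, although the direction did not. Without the KO control array of mouse 2 the log2 fold change was -2.53 (limma, adjusted p = 0.0723), and without that of mouse 3 it was -2.84 (adjusted p = 0.0680). Without the KO miR-29b array of mouse 4 it was -2.51 (limma, adjusted p = 0.0593). Without both arrays of KO mouse 2 it was -2.72 (adjusted p = 0.135). KO mouse 3 stood apart, with 4 Y-linked genes at a median of -7.87 or lower on both its arrays against -0.32 or higher on the other 10 arrays, and its miR-29b array had 1458 outlier spots against 68 to 193 on the other 11 arrays. Without both arrays of that mouse the log2 fold change was -3.12 (limma, adjusted p = 0.0880). Leaving out both arrays of WT mouse 2 or of WT mouse 4, which only lend their spread to the fit, left -2.98 with adjusted p of 0.0665 and 0.0696.

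The second comparison asks what blocking miR-29 does in cells with their own microRNAs. Ifng was at a higher level in the inhibitor arm than in the control arm of all 3 WT mice, by 0.31, 0.31 and 0.80 on the log2 scale on probe A_52_P68893 and by 0.39, 0.23 and 0.85 on the other probe. The fitted difference was 0.48 ± 0.52 (SE; 95% interval -0.69 to 1.64), which did not pass (limma, adjusted p = 1.0, unadjusted p = 0.385). Blocked by mouse, the interval was 0.02 to 0.93 (limma, unadjusted p = 0.0445, adjusted p = 1.0). For probe A_51_P220976 the blocked interval was -0.003 to 0.98 and spanned 0 (limma, unadjusted p = 0.0512). Of the 14705 genes 0% passed in this comparison with limma, and 63 had an unadjusted p under 0.05.

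The third comparison sets the control arms of both genotypes side by side, with the kind of control oligonucleotide changing with the genotype. Ifng was 79.9-fold higher in KO control cells than in WT control cells (95% interval 35.7 to 179). The log2 difference was 6.32 ± 0.52 (limma, adjusted p = 3.12e-05), the 8th highest of 14705 genes, in a comparison where 21.9% of genes passed with 9.51% higher and 12.4% lower. Probe A_51_P220976 showed 87.8-fold. Of the slides, 2 held both genotypes, and within them the log2 difference was 6.88 on slide 2 and 5.42 on slide 4. Without both arrays of KO mouse 3 it was 6.19 (limma, adjusted p = 0.000374).

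Even with miR-29b added, KO cells held more Ifng RNA than the WT controls. The log2 difference between KO miR-29b and WT control cells was 3.34 ± 0.52, or 10.2-fold (95% interval 4.54 to 22.7; limma, adjusted p = 0.00117). In that comparison 24.9% of genes passed. Within slides the difference was 3.39 on slide 2 and 2.67 on slide 4, and it was 3.06 without both arrays of KO mouse 3 (limma, adjusted p = 0.00852). This comparison shares its WT controls with the preceding one and its miR-29b arrays with the first.

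The miR-29b effect in KO cells and the inhibitor effect in WT cells were set against each other in the same fit. The first minus the second was -3.45 ± 0.74 on the log2 scale, which did not pass without a block (limma, adjusted p = 0.114; 0.190% of genes passed). Blocked by mouse, it passed (limma, adjusted p = 0.00781; 5.96% of genes passed). The 3 KO mice all went down and the 3 WT mice were all higher with the inhibitor.

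**Figure D3:**
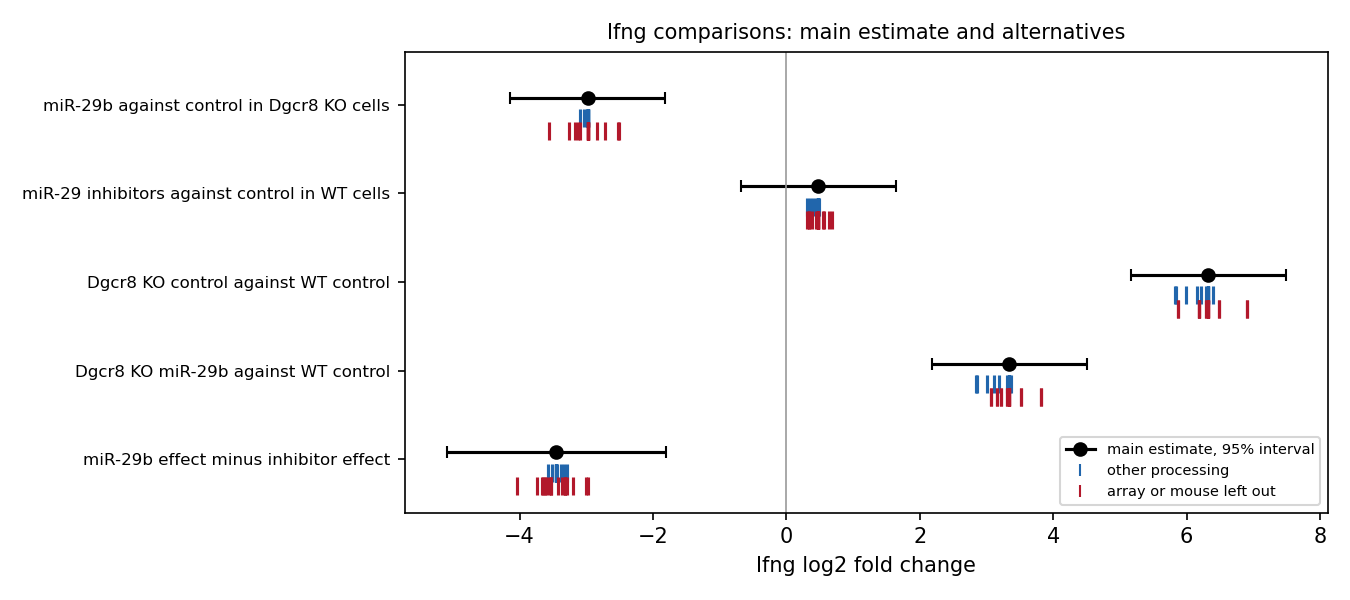
Ifng log2 fold changes in the 5 comparisons, with the main estimate and its 95% interval (black), the other ways of processing (blue) and the fits without an array or a mouse (red). The estimates of the first comparison stay between -3.56 and -2.51 and those of KO control against WT control between 5.82 and 6.90, whereas the interval of the inhibitor comparison spans 0.

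Among the transcription factors that promote Ifng, Eomes passed in the same direction as Ifng with miR-29b and between the controls. Eomes had levels of -0.99, -0.93 and -1.01 in KO miR-29b cells, against -0.06, 0.52 and 0.07 in KO control cells. Its levels were -3.80, -4.14 and -3.62 in WT inhibitor cells, against -4.14, -4.64 and -4.56 in WT control cells. The KO groups did not overlap, and Eomes fell with miR-29b by 1.15 ± 0.21 on the log2 scale (limma, adjusted p = 0.0226). It was higher in KO control than in WT control cells by a log2 difference of 4.62 (limma, adjusted p = 1.29e-06). In the WT mice its inhibitor arm was 0.34, 0.50 and 0.94 above the control arm, a fitted difference of 0.59 that did not pass.

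Tbx21, which encodes T-bet, had levels of 3.51, 4.48 and 2.87 in KO miR-29b cells, against 4.91, 5.12 and 3.89 in KO control cells of mice 2, 3 and 4. These groups overlapped, but the miR-29b arm was lower in each mouse, by log2 differences of -1.40, -0.64 and -1.02. The fitted change of -1.02 ± 0.59 did not pass without a block (limma, adjusted p = 0.515) and passed when blocked by mouse (adjusted p = 0.00928). Between KO control and WT control cells Tbx21 differed by 1.30, which did not pass (limma, adjusted p = 0.154). Stat4 differed by -0.31 with miR-29b and by 0.37 between the controls, and passed in neither.

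Of the 18 promoting factors, all of which were measured, 0 rose and 1 fell with miR-29b (Eomes). In that fit 0.884% of all genes passed as higher and 1.40% as lower. The 18 had a median log2 change of -0.18 against 0.07 for all genes. Without any 1 of the KO control arrays, without the KO miR-29b array of mouse 2 or of mouse 4, or without both arrays of KO mouse 3, 0 of the 18 passed, so Eomes was not called there. Blocked by mouse, 5 fell and 1 rose, in a fit that called 20.8% of all genes. Between KO control and WT control cells the 18 had a median of 0.52, against -0.07 for all genes. Of the 18, 7 were higher and 0 lower, where 9.51% of all genes were higher and 12.4% lower. The 7 included Eomes, Hlx (3.50), Jun (2.74), Irf1 (1.78), Runx3 (1.18) and Nfatc2 (0.66). Hlx is a homeobox factor of type 1 helper cells, Jun a component of AP-1, Irf1 an interferon-induced factor, Runx3 a partner of T-bet, and Nfatc2 carries signals from the antigen receptor. The other 2 Nfatc2 probes showed 0.29 and 0.22 and did not pass.

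Among the receptors that induce Ifng, 1 chain for interleukin-12 and 1 for interleukin-18 fell with miR-29b. Il12rb2, the signalling chain of the interleukin-12 receptor, had levels of -0.46, 0.55 and -0.21 in KO miR-29b cells, against 1.33, 1.42 and 1.20 in KO control cells. It had levels of -0.88, -0.95 and -0.48 in WT inhibitor cells, against -0.85, -1.0 and -0.94 in WT control cells. The KO groups did not overlap. Il12rb2 fell with miR-29b by 1.36 ± 0.25 on the log2 scale (limma, adjusted p = 0.0212) and was 2.25 higher in KO control than in WT control cells (limma, adjusted p = 0.00016).

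Il18rap, the accessory chain of the interleukin-18 receptor, had levels of -1.90, -1.28 and -2.31 in KO miR-29b cells, against 0.21, 0.24 and -0.36 in KO control cells. Its levels in WT inhibitor cells were -0.42, -0.06 and -0.11, against -0.28, -0.06 and -0.24 in WT control cells. The KO control arrays thus overlapped the WT arrays, and only the KO miR-29b arrays lay apart from the rest. The fall with miR-29b was 1.86 ± 0.27 on the log2 scale (limma, adjusted p = 0.00759), while KO control and WT control cells differed by 0.23 (limma, adjusted p = 0.644). Il18r1, the ligand-binding chain, was 2.38 higher in KO control than in WT control cells (limma, adjusted p = 0.000318), and showed -0.45 with miR-29b, which did not pass.

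Of the 23 receptor and kinase genes, all measured, 0 rose and 2 fell with miR-29b (Il12rb2 and Il18rap). In that fit 0.884% of all genes passed as higher and 1.40% as lower. The 23 had a median of 0.04 against 0.07 for all genes. In the blocked fit 2 rose and 4 fell, or 6 of 23 against 20.8% of all genes called. The number that fell was 1 to 2 with single arrays left out and 0 to 4 over 31 alternatives. Between KO control and WT control cells 4 were higher and 0 lower, where 21.9% of all genes passed, 9.51% as higher. The 4 were Il12rb2, Il18r1, Il12rb1 (1.31) and Il2ra (1.31). A second Il2ra probe showed 0.91 and did not pass. Il12rb1 is the other interleukin-12 receptor chain, and Il2ra is the alpha chain of the interleukin-2 receptor.

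All 11 listed factors known to restrain Ifng were measured. With miR-29b 0.884% of all genes rose and 1.40% fell, and of the 11, 0 rose and 2 fell. They were the DNA methyltransferases Dnmt3b (-1.99; limma, adjusted p = 0.00292) and Dnmt3a (-1.04; adjusted p = 0.0198), and of the other 2 Dnmt3a probes one showed -1.82 and the other -0.41, which did not pass. Blocked by mouse, 1 rose (Tcf7) and 3 fell (Dnmt1 beside these), in a fit that called 20.8% of all genes. Only 1 fell without both arrays of KO mouse 3, and likewise without the KO control array of mouse 2 or 3 or the KO miR-29b array of mouse 4. In the comparison of KO control and WT control cells, where 21.9% of all genes passed, 1 of the 11 was lower and 0 higher. It was Foxp3, the factor of regulatory T cells, at -1.70.

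Of the chains of the interferon gamma receptor, Ifngr2 passed between genotypes and Ifngr1 did not. Ifngr1, the ligand-binding chain, had levels of 5.82, 5.70 and 4.50 in KO miR-29b cells and 5.72, 6.02 and 4.61 in KO control cells. Its levels were 5.82, 4.73 and 6.09 in WT inhibitor cells and 5.68, 4.62 and 6.22 in WT control cells. The 4 groups overlapped, and Ifngr1 passed in 0 of the 5 comparisons. Ifngr2, the signalling chain, had levels of 2.96, 1.76 and 2.32 in KO miR-29b cells, against 1.94, 1.58 and 2.08 in KO control cells, and these overlapped. It was 1.5 higher in KO control than in WT control cells (limma, adjusted p = 0.00379). Of 11 receptor and signalling genes, all measured, 0 passed with miR-29b, where 2.28% of all genes passed. Blocked by mouse, 2 rose (Socs3 and Ptpn6) and 1 fell (Ptpn11), in a fit that called 20.8% of all genes. Between the controls 3 were higher, Socs3 and Ifngr2 among them, and 0 lower, where 21.9% of all genes passed. Socs3, at 1.92, is a feedback inhibitor of cytokine signalling.

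Most measured genes that interferon gamma induces in many cells were higher in KO control than in WT control cells, and few fell with miR-29b. Of 37 such genes, 33 had a probe and 31 passed the filter. Cxcl9 and Nos2 were below it, and Cxcl11, H2-Eb1, Nlrc5 and Serpina3g had no mapped probe. In the comparison of KO control and WT control cells 9.51% of all genes were higher and 12.4% lower. Of the 31, 26 were higher and 0 lower there, with a median log2 difference of 2.57 against -0.07 for all genes. The highest were Ido1 (6.71), which degrades tryptophan, Iigp1 (5.47), a GTPase that attacks parasite vacuoles, H2-Aa (5.10) and Cd74 (4.79), of class II antigen presentation, and the guanylate-binding protein gene Gbp2 (4.54). The 5 that did not pass were Psmb8, Psmb9, B2m, Icam1 and Socs1.

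With miR-29b the 31 had a median of -0.23 against 0.07 for all genes. Of the 31, 3 fell and 0 rose, where 1.40% of all genes fell and 0.884% rose. Those 3 were Batf2 (-2.11; limma, adjusted p = 0.029), a transcription factor, Gbp7 (-0.86; adjusted p = 0.0307), another guanylate-binding protein gene, and Iigp1 (-1.0; adjusted p = 0.0464). In the blocked fit 11 fell and 1 rose, where 10.3% of all genes were called lower and 10.5% higher. With single arrays left out the number that fell was 0 to 3. Without both arrays of KO mouse 3 it was 1. With the inhibitors 0 of the 31 passed, where 0% of all genes passed.

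Irf1 had levels of 6.28, 6.89 and 6.35 in KO miR-29b cells, against 6.82, 6.79 and 6.69 in KO control cells. Its levels were 5.45, 5.0 and 5.32 in WT inhibitor cells, against 5.01, 4.68 and 5.24 in WT control cells. The KO groups overlapped, and both lay above every WT array. The signals of the 31 genes, as multiples of each array's 75th percentile, summed to 1299 to 1650 in KO miR-29b cells and 1593 to 1719 in KO control cells. In WT cells the sums were 580 to 611 with inhibitors and 508 to 596 with the control.

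Of 10 cytotoxic and chemokine genes, often made by the same cells as interferon gamma, 5 were higher and 0 lower in KO control than in WT control cells. In that comparison 9.51% of all genes were higher and 12.4% lower. The 5 included the perforin gene Prf1 (4.03) and the chemokine genes Ccl4 (2.76) and Ccl5 (1.61). With miR-29b 0 of the 10 passed, where 2.28% of all genes passed. When blocked by mouse 3 fell, in a fit that called 10.3% of all genes as lower. They were Gzmk (-2.07), a granzyme gene, Fasl (-1.78), the Fas ligand gene, and Nkg7 (-1.35), of cytotoxic granules. A dimmer Fasl probe, fitted among all probes without a block, showed -1.71 and passed (limma, adjusted p = 0.0344).

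Ifng was also set beside the other cytokines of helper T cells. Of 16 genes, 12 passed the filter, and 0 of these passed with miR-29b, where 2.28% of all genes passed. The 12 had a median log2 change of 0.51 there, against 0.07 for all genes. Blocked by mouse, 3 of the 12 rose and 0 fell, in a fit that called 10.5% of all genes as higher. Between KO control and WT control cells Il4 (0.98) and Il21 were higher and Csf2 (-1.14), which encodes GM-CSF, was lower. These are 3 of 12, where 21.9% of all genes passed, and 1 to 3 were higher with single arrays left out. Il21 was not well above background on any WT array. Of 10 genes whose products bind or degrade cytokine transcripts, such as Zfp36 and Zc3h12a, 0 passed with miR-29b and 0 between the controls. The shares of all genes that passed were 2.28% with miR-29b and 21.9% between the controls.

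**Figure D4:**
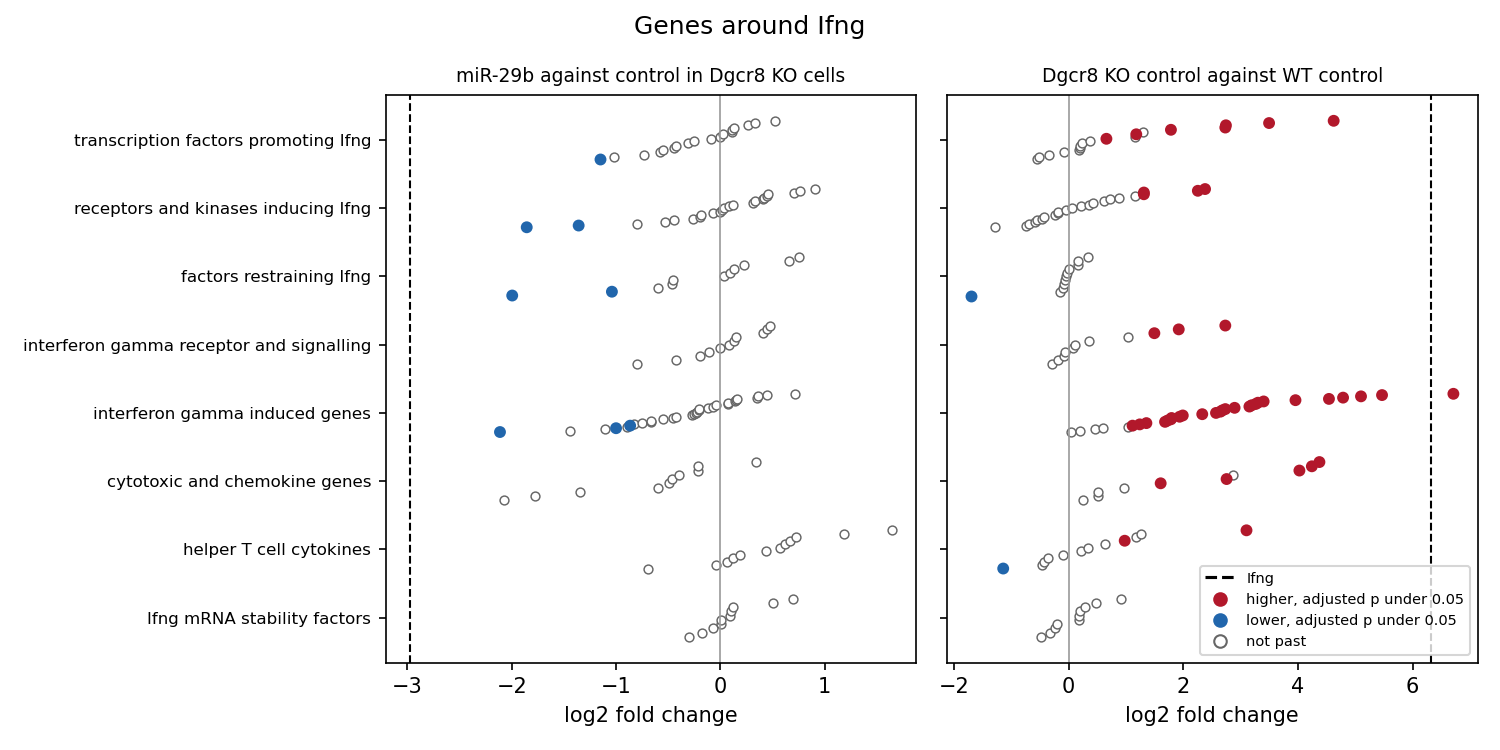
Log2 fold changes of the measured genes of 8 lists around Ifng, for miR-29b against control in KO cells (left) and KO control against WT control (right), filled where the adjusted p is under 0.05 (red higher, blue lower), with Ifng as a dashed line at -2.98 and 6.32. On the right 26 of 31 interferon gamma induced genes are filled red, and on the left 3 of them are filled blue. Over all genes, 9.51% were called higher in the right comparison and 1.40% lower in the left.

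The genes whose level was most like that of Ifng over the 12 arrays were found by Pearson correlation of log2 levels among 14187 genes with no missing value. They were Spryd3 (0.990), Smug1 (0.986), Sun1 (0.982), Oas1a (0.980), 2700081O15Rik (0.979), Man1c1 (0.978), Ccnd2 (0.978) and Smpdl3b (0.975). Smug1 encodes a uracil DNA glycosylase, Sun1 a nuclear envelope protein, Oas1a an interferon-induced enzyme and Ccnd2 cyclin D2. The most opposite were Arhgap29 (-0.990), Ntrk3 (-0.983), Sdhaf1 (-0.982) and Ntpcr (-0.982). A total of 234 genes had a correlation over 0.9 and 349 one under -0.9. The arrays fall into 4 groups and 6 mice, so these values are descriptions of a shared pattern over groups. Of these 12 genes, 12 passed between KO control and WT control cells and 0 passed with miR-29b, but they were chosen on the same levels and nothing is read from this count. A second Ntrk3 probe showed -1.36 between the controls and did not pass (limma, adjusted p = 0.0555).

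Among the genes with a known tie to Ifng, the correlation over 12 arrays was 0.954 for Il12rb2, which ranked 27th of the 14187, and 0.953 for Eomes, which ranked 30th. It was 0.922 for Irf1, 0.890 for Il18r1, 0.747 for Ifngr2, 0.680 for Tbx21, 0.105 for Ifngr1 and 0.047 for Stat4. For Il18rap it was -0.01 over 12 arrays and 0.969 over the 6 KO arrays. Over the KO arrays it was 0.874 for Il12rb2, 0.856 for Eomes, 0.667 for Irf1 and 0.886 for Il18r1. There Ifngr2 had -0.546, Tbx21 0.876, Ifngr1 0.502 and Stat4 -0.132. The order over 12 arrays was thus not kept within the KO arrays.

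The genes next to Ifng on chromosome 10 were examined for the same comparisons. The nearest with a measured probe were Mdm1, Rap1b and Nup107 on one side and Helb, Irak3 and Tmbim4 on the other. Of these 6, 0 passed with miR-29b, where 2.28% of all genes passed, and 0 between the controls, where 21.9% passed. Ifng showed -2.98 and 6.32 in these comparisons. Blocked by mouse, 3 of the 6 fell with miR-29b, in a fit that called 10.3% of all genes as lower. They were Helb, a DNA helicase gene (-0.93; limma, adjusted p = 0.0686, blocked 0.00741), Nup107 (-0.43; blocked 0.0186), of the nuclear pore, and Mdm1 (-0.61; blocked 0.0383). A dimmer Mdm1 probe, fitted among all probes, showed -1.28 (limma, adjusted p = 0.0257), while the probe that stood for the gene showed -0.61.

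Some facts of the cultures bear on the difference between genotypes. Dgcr8 itself had levels of -1.19 to -0.10 on KO arrays and -0.12 to 1.04 on WT arrays, a difference between the controls of -1.04 that did not pass (limma, adjusted p = 0.0778), and where its probe lies relative to the deleted stretch is not known. All 12 helper T cell markers were measured, and between the controls 1 was higher (Cd28), 3 were lower (Lck, Cd40lg and Icos), where 21.9% of all genes passed, and Cd4 differed by 0.18. Of 5 B cell markers 4 were higher in KO control than in WT control cells, among them Ms4a1 (5.88) and Cd79b (3.85). In that comparison 9.51% of all genes were higher and 12.4% lower. Summed as multiples of the 75th percentile, the 5 came to 5.04 to 10.6 in KO miR-29b and 4.35 to 9.52 in KO control cells, against 0.46 to 0.59 in WT inhibitor and 0.35 to 0.51 in WT control cells. The B cell factor gene Pax5 differed by 0.02.

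Natural killer cells also make interferon gamma, and 7 of their 8 markers were measured. For these and the markers that follow, 9.51% of all genes were higher and 12.4% lower between the controls. Klrk1 (3.54; well above background on 1 of 3 WT control arrays) and Tyrobp (2.57) were higher and Klrd1 (-2.54) and Fcgr3 (-2.21) lower in KO control than in WT control cells. Ncr1, a defining marker, differed by 1.06 and did not pass. The summed level of the 7 was 0.39 to 1.25 in KO miR-29b and 0.59 to 1.41 in KO control cells, against 2.56 to 5.39 in WT inhibitor and 1.79 to 4.02 in WT control cells. Between the controls 5 of the 7 had a positive log2 difference, with a median of 1.06. The CD8 T cell marker Cd8a differed by 0.28 and did not pass. Of 2 measured gamma delta T cell markers Blk was higher (2.20; well above background on 1 of 3 WT control arrays) and Sox13 lower (-3.03). Of 5 measured myeloid markers Adgre1 was lower (-2.70) and Itgax, not well above background on any WT control array, was higher. In miR-29b against control, 0 of the measured markers of these other cell types passed, where 2.28% of all genes passed. Blocked by mouse, 1 myeloid marker, Adgre1, was higher (limma, adjusted p = 0.0207), in a fit that called 10.5% of all genes as higher. The part of other cell types in the differences of Ifng and of the interferon gamma induced genes, H2-Aa and Cd74 among them, was not tested.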

How the data were processed

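The authors deposited scanner files with spot intensity in arbitrary units, made with Agilent Feature Extraction 10.5.1.1 per the file headers, which takes background off each spot but leaves arrays unscaled. They also deposited a table of log2 values, and the submitters' processing notes name limma for it, with no version or steps given in the sources used here. The scanner values were used here. Spots marked as non-uniform or population outliers were dropped, the processed signal was converted to log2, spots of a probe were averaged and the 75th percentile of each array was subtracted. Probes stayed in if at least 0.5 of their spots were well above background on 3 or more of the 12 arrays. This left 32200 of 41174 probes, 21083 of them with a symbol, and 14705 genes, each represented by its brightest probe. Per array, 27287 to 31405 probes exceeded background clearly and 0 spots were saturated. Precision is limited by the 3 arrays of each group.

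Comparisons of group means used limma 3.58.1 (R 4.3.3) in one fit of 4 groups and 12 arrays, with two-sided p-values adjusted by Benjamini-Hochberg over all genes and a threshold of 0.05. Without a block, the p-values rest on the spread between arrays within groups, pooled over all groups. That fit takes the paired arrays of a mouse as independent. Blocked by mouse, they rest on the spread of the differences within mice. The fit without a block was tested on simulated data with independent arrays, which could not check the pairing within mice.

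The series' design text says that the cells of each mouse were split between both conditions, so numbers pair arrays within a genotype. Residuals of paired arrays correlated at 0.652, 0.613 and 0.753 in KO mice and at 0.468, 0.722 and 0.430 in WT mice. Equal numbers across the control arms of both genotypes (0.239, -0.326 and -0.353) were not treated as pairs. As an alternative for comparisons between genotypes the mouse was a random block (correlation 0.757). For Ifng it gave limma adjusted p of 2.68e-05 for KO control and 0.000806 for KO miR-29b against WT control. The genotype values given in the Results come from fits without a block.

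The genes named were Ifng, Dgcr8 and a fixed set of genes of its pathway whatever their values, up to 6 members of each list past the threshold with the smallest p, the 8 most alike and 4 most opposite genes, and the 3 nearest measured neighbours on each side. Other list members named with their values were chosen after these were seen. The members and lists were chosen with earlier results of these data known. Alternatives covered background correction, scaling, the filter, probe choice, blocks, the deposited log2 table and leaving out arrays or mice. The files hold no mean signal, so normexp used the median signal, a choice made after seeing the files. Promoters and microRNAs came from RefSeq tables of GRCm38.p6. No genome or protein sequence was used. One gene of the lists is counted in them but not reported by name here.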

Additional observations from a re-analysis of the deposited data

Results flagged for a closer look

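The difference between the miR-29b effect in Dgcr8 KO cells and the inhibitor effect in WT cells stood out for Ifng because every KO mouse moved one way and every WT mouse the other. It was -3.45 ± 0.74 on the log2 scale. The KO mice showed -3.49, -2.68 and -2.75, and the WT mice 0.31, 0.31 and 0.80. The inhibitor difference alone did not pass (limma, unadjusted p = 0.385). Before scaling, WT mouse 2 had 241 units with the inhibitor and 245 with the control on probe A_52_P68893. On the other probe it had 119 and 114 units. The test of the difference between the miR-29b and inhibitor effects did not pass without a block (limma, adjusted p = 0.114). It passed when blocked by mouse (limma, adjusted p = 0.00781).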

How the results depend on the processing

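The direction of Ifng was the same in all alternatives run in each of the 5 comparisons. The fall with miR-29b passed in 23 of 31 alternatives and ranged from -3.56 to -2.51. It did not pass when only the arrays of the comparison were fitted (-2.98; limma, adjusted p = 0.217), a fit with fewer samples. Leaving out a single array gave -3.56 to -2.51, and 3 of those 12 fits did not pass. Leaving out both arrays of a mouse gave -3.12 to -2.72 and 4 of 6 fits did not pass, with limma adjusted p up to 0.135. The differences of KO control and of KO miR-29b from WT control passed in 31 of 31 alternatives, at 5.82 to 6.90 and 2.84 to 3.82. The inhibitor difference passed in 0 of 31, at 0.31 to 0.69. The deposited log2 table gave -2.99, 0.39, 5.99 and 3.00 for the 4 comparisons of groups.

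With the mouse as a replicate block, the miR-29b effect minus the inhibitor effect was -3.45 and passed (adjusted p = 0.00781), as it did with slide (-3.45, adjusted p = 0.0115) or scan day (-3.45, adjusted p = 0.00509) as a block. It passed in none of the other 27 of 30 alternatives, with limma adjusted p of 0.0607 to 0.607, and could not be fitted on only the arrays of one comparison. The block changed no other call on Ifng. The block moved the number of genes passing with miR-29b to 3052, against 336 without it. This count was 205 with array median scaling, 636 with normexp and quantile normalization, 2466 with slide and 1839 with scan day as a block, and 0 with only the arrays of the comparison. It was 103 to 306 with a single array left out (103 without the KO control array of mouse 2) and 10 to 240 with a mouse left out (10 without KO mouse 2, 28 without KO mouse 4). Among interferon gamma induced genes, 0 to 11 fell with miR-29b and 24 to 29 were higher in KO control cells over 31 alternatives. For the inhibitor difference the 95% interval was -0.69 to 1.64 without a block and 0.02 to 0.93 within mice. Within mice it was -0.003 to 0.98 on probe A_51_P220976. The 3 arrays per group limit this comparison.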
